A study of Homo sapiens with 6 samples.

Results

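The genes described here encode core factors of nonsense-mediated decay (NMD), the pathway that degrades mRNAs whose translation stops too early. They are UPF1, UPF2, UPF3A, UPF3B, SMG1, SMG5, SMG6, SMG8 and SMG9, taken by name from the table of read counts. All 9 were found among its 60664 Ensembl gene IDs, and all 9 were among the 16102 genes with enough reads to be tested. RNA was sequenced from HCT-8, an established human colorectal cancer cell line, after transfection with a plasmid for a short hairpin RNA against PNISR (shPNISR, 3 libraries) or with a control plasmid (shNC, 3 libraries). No other treatment is named for either group, and the labels do not say whether the cells were selected or whether the libraries came from separate cultures, so each p-value reflects the spread among these libraries alone, which may be technical. The series was designed around alternative splicing. The values here are reads per gene, so isoforms that carry premature stop codons cannot be told from the rest of a gene's mRNA.

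In NMD, the RNA helicase UPF1 gathers on an mRNA where translation has ended, and UPF2 and UPF3 proteins link it to exon junction complexes left downstream by splicing. The kinase SMG1, held in check by SMG8 and SMG9, phosphorylates UPF1. Phosphorylated UPF1 then recruits SMG6, an endonuclease that cuts the mRNA near the stop codon, and SMG5, which helps to bring in deadenylating and decapping enzymes. Several human NMD factor mRNAs are themselves known targets of the pathway, and their levels rise in cells in which it is impaired.

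PNISR, the gene aimed at by the hairpin, which encodes a protein that binds the splicing factor pinin, had 18.5, 20.7 and 27.6 CPM in the shPNISR libraries, against 55.3, 50.2 and 62.8 CPM in the shNC libraries. CPM set the gene's reads against the reads counted in all tested genes of a library, on a fixed common scale, here corrected with trimmed-mean (TMM) factors. All 3 shPNISR libraries lay below all 3 shNC libraries, and 39.7% of the shNC level remained (95% interval 31.9% to 49.3%; edgeR quasi-likelihood test, Benjamini-Hochberg adjusted p = 8.73e-05). Total counts ran from 15703210 to 17299847 in shPNISR and from 15049485 to 17977803 in shNC. On the first principal component of log2 CPM (44.8% of the variance), the shPNISR libraries stood at 16.9 to 24.6 and shNC 1 and 3 at -35.2 and -31.2, while shNC 2, at 0.79, lay nearer to the shPNISR libraries. On the second (20.6%), shPNISR 2 and shNC 3 stood at -23.0 and -19.0, and the other 4 libraries between -0.84 and 25.1. Of 8 epithelial markers, 7 were tested, and their summed level was 4808 to 6048 CPM in shPNISR and 4335 to 4941 CPM in shNC. Summed levels of the fibroblast, leukocyte and endothelial markers stayed below 7 CPM in every library, and COL1A2, PTPRC and TEK had no reads. By the edgeR test 1 of the 7 epithelial markers rose and 0 fell, and of 4 leukocyte markers 0 rose and 1 fell. None of the 4 fibroblast markers passed, nor did the 1 endothelial marker tested. Of all tested genes 2.3% were higher and 0.832% lower by this test, and 52.1% had a fitted value below 0. The fitted value was above 0 for all 7 epithelial markers and for 3 of the 4 leukocyte markers, whose list summed to 5.45 to 6.88 CPM in shPNISR and 4.42 to 5.66 CPM in shNC.

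No NMD factor gene passed the test between shPNISR and shNC. By edgeR's quasi-likelihood test, with Benjamini-Hochberg adjusted p under 0.05, 0 of the 9 were higher and 0 lower. Of all tested genes 3.14% passed, 2.3% higher and 0.832% lower. At an unadjusted p under 0.05 the count was also 0, against 17.8% of all tested genes, and DESeq2 and limma voom called 0 at both levels as well. At the unadjusted level some other alternatives gave 1 to 3 members, the most with a correction for GC content and exon length. The share of all tested genes was not computed for that correction. In none of the 9 were the groups free of overlap, which 21.1% of all tested genes were. The fitted value lay below 0 for 7 members, as it did for 52.1% of all tested genes, and above 0 for UPF3A and UPF3B, and the median of the 9 was -0.10 on the log2 scale, beside -0.01 over all tested genes. Leaving SMG1 aside, the 95% intervals of the members ran from 68.0% of the shNC level at the lowest to 139% at the highest. That of SMG1 was wider, from 46.2% to 123.4%.

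**Figure D1:**
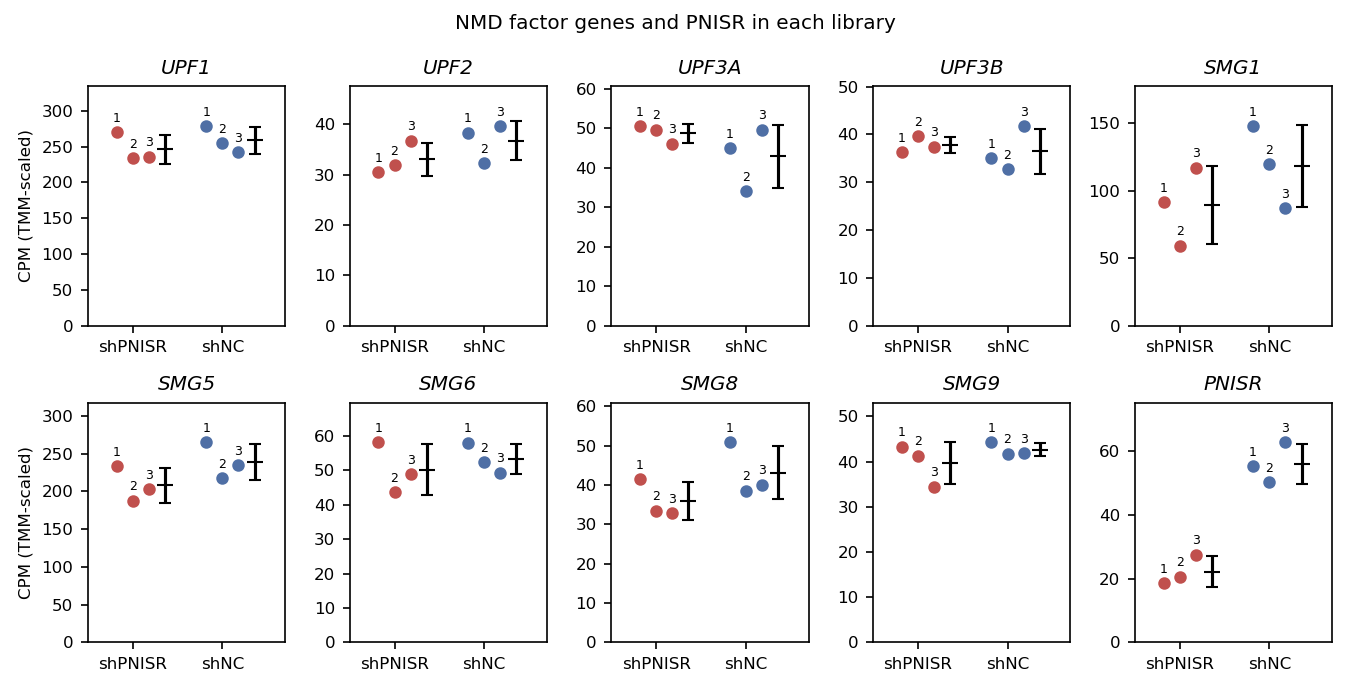
TMM-scaled CPM of the 9 NMD factor genes and of PNISR in each shPNISR (left) and shNC (right) library. Points are libraries with their replicate number, and bars are mean ± SD over 3 libraries. The groups overlap in all 9 members, while PNISR lies between 18.5 and 27.6 CPM in shPNISR, below every shNC library.

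UPF1, the helicase at the centre of the pathway, varied least among the members. Its level was 270.0, 233.8 and 236.2 CPM in shPNISR 1 to 3, against 278.8, 255.1 and 242.3 CPM in shNC 1 to 3. The shPNISR 1 library lay above 2 of the shNC libraries, and the whole spread over 6 libraries was 1.19-fold, smaller than in all but 7.43% of tested genes. Fitted as a log2 fold change, shPNISR over shNC, the difference was -0.07 ± 0.11 (SE), an interval of 81.3% to 112% of the shNC level (edgeR, adjusted p = 0.789). In GRCh38, UPF1 (ENSG00000005007) spans chromosome 19 from 18831938 to 18868236, plus strand, and no annotated exon of another gene overlaps its exons.

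UPF2, the adaptor between UPF1 and the UPF3 proteins, stood at 30.5, 31.8 and 36.7 CPM in shPNISR, against 38.3, 32.3 and 39.6 CPM in shNC. The shPNISR 3 library lay above shNC 2, so the groups overlapped in that pair. The fitted log2 difference was -0.15 ± 0.13 (edgeR, adjusted p = 0.573). UPF2 (ENSG00000151461) spans chromosome 10 from 11920022 to 12043170, minus strand.

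UPF3A and UPF3B are paralogs. In human cells UPF3B is the stronger activator of NMD, and UPF3A protein is known to build up where UPF3B is lost. Their coding sequences of 1428 and 1449 bases were 67.2% identical over 1308 aligned bases. The 90 coding bases in which they are most alike are shown because they bear on whether reads can be assigned to one gene or the other. They are bases 364 to 453 of the UPF3A coding sequence (chromosome 13) and the aligned bases of UPF3B (chromosome X), from GENCODE 29 transcripts, with the 22 bases that differ in capitals.
UPF3A: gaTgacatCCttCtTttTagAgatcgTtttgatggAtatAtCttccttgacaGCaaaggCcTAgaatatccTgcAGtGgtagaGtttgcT
UPF3B: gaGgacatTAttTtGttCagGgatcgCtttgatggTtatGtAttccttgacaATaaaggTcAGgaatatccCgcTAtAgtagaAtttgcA
In this stretch the pair was 75.6% identical, and UPF3B shared no stretch of 100 bases with any other annotated transcript. UPF3A shared 25.7% of its stretches of that length with the chromosome 17 pseudogenes UPF3AP1 and UPF3AP2, which held at most 4 reads in any library.

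UPF3A had 50.6, 49.7 and 46.1 CPM in shPNISR, against 45.05, 34.2 and 49.7 CPM in shNC. The shNC 3 library stood among the shPNISR libraries, and shNC 2 lay lowest of all 6. The log2 fold change was 0.18 ± 0.14 (edgeR, adjusted p = 0.509), and it was 0.04 with shNC 2 left out. UPF3B had 36.2, 39.6 and 37.4 CPM in shPNISR, against 35.0, 32.7 and 41.8 CPM in shNC. All 3 shPNISR libraries lay inside the range of the shNC libraries. Its log2 fold change was 0.05 ± 0.13 (edgeR, adjusted p = 0.879), and -0.02 with shNC 2 left out, where the direction turned.

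The ratio of the paralogs within a library does not depend on scaling between libraries. Reads of UPF3A per read of UPF3B were 1.40, 1.26 and 1.23 in shPNISR 1 to 3, against 1.29, 1.05 and 1.19 in shNC 1 to 3. UPF3A had more reads in every library, and shNC 1 lay above 2 shPNISR libraries. The difference of the mean log2 ratios was 0.14 (0.06 without shNC 2), with SDs of 0.10 in shPNISR and 0.15 in shNC (n = 3 each; exact permutation test over libraries, two-sided, p = 0.3, and 0.3 adjusted over the 2 ratios tested; 3 against 3 cannot go below 0.1). UPF3A (ENSG00000169062) spans chromosome 13 from 114281584 to 114305817, plus strand, and UPF3B (ENSG00000125351) chromosome X from 119805311 to 119852998, minus strand.

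SMG1, the kinase of UPF1, is the largest of the genes by coding length, with 10983 coding bases in 63 exons. Part of its reads is hard to assign. It spans chromosome 16 from 18804853 to 18926454, minus strand (ENSG00000157106), and 7 pseudogenes on the same chromosome, SMG1P1 to SMG1P7, are partial copies that cover 16.3% to 26.3% of its transcript. Their best aligned blocks were 93.1% to 98.5% identical to the SMG1 transcript, and 11.5% of all stretches of 100 bases in that transcript also occur in transcripts of other genes. A pair of 90-base coding stretches shows what this means for counting. The first, bases 1378 to 1467 of the coding sequence, is the same in all 7 copies.
SMG1, 1378 to 1467: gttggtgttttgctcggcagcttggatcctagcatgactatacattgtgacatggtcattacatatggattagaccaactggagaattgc
The second, bases 3805 to 3894, is the one in which the copies differ most from SMG1 among stretches aligned in all 7. SMG1P1 to SMG1P5 have 1 sequence there, SMG1P6 and SMG1P7 another each, and capitals mark bases that differ from SMG1.
SMG1, 3805 to 3894: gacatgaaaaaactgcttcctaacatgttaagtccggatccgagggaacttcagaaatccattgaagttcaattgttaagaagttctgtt
SMG1P1: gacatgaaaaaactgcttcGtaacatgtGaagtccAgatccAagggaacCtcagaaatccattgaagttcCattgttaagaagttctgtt
SMG1P6: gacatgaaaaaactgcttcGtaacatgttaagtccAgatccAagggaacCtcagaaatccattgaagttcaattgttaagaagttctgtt
SMG1P7: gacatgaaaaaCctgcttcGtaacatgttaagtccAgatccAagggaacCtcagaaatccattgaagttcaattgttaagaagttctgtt
SMG1P1 differed from SMG1 at 6 of the 90 bases, SMG1P6 at 4 and SMG1P7 at 5. A read lying wholly in the first stretch does not tell SMG1 from its copies, while a read across the second holds bases that do.

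SMG1 had 91.4, 59.4 and 116.9 CPM in shPNISR, against 147.9, 119.4 and 87.0 CPM in shNC. The shPNISR libraries 1 and 3 stood above the lowest shNC library, and shPNISR 2 lay lowest of all. The spread from the lowest to the highest library was 2.49-fold, and 90.5% of tested genes had a smaller spread. As a log2 fold change the difference was -0.40 ± 0.29 (edgeR, adjusted p = 0.534). It was -0.19 with shPNISR 2 left out, -0.21 without shNC 1 and -0.65 without shPNISR 3, and none of these passed (edgeR, adjusted p = 0.752, 0.898 and 0.180).

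The SMG1 values are set here beside those of long genes as a class. In the 1600 longest of the tested genes, with exons of at least 10284 bases in all, the median deviation from the mean of the 6 libraries was -0.03, -0.21 and 0.08 on the log2 scale in shPNISR 1 to 3, against 0.15, 0.11 and -0.06 in shNC 1 to 3. SMG1 deviated by -0.12, -0.74 and 0.23 in shPNISR 1 to 3, against 0.57, 0.26 and -0.19 in shNC 1 to 3. Both were lowest in shPNISR 2 and next to lowest in shNC 3. SMG1 ranged more widely than the class median. With each library corrected for GC content and exon length together, the SMG1 log2 fold change was -0.24 (edgeR, adjusted p = 0.429). Whether gene length accounts for the SMG1 values was not tested.

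How reads matching several genes were counted was not given. Reads of the SMG1 copies were fewer than reads of SMG1 in every library. Summed over the 7 pseudogenes they came to 268, 141 and 247 in shPNISR, against 327, 206 and 259 in shNC. That is 17.4%, 14.7% and 13.0% of the SMG1 count in shPNISR, against 12.2%, 11.2% and 19.8% in shNC. Of the copies, 5 had enough reads to be tested and none passed. SMG1P3 had 103, 17 and 67 reads in shPNISR, against 55, 52 and 26 in shNC, and SMG1P7 had 41, 51 and 56 reads in shPNISR, against 96, 43 and 97 in shNC. The log2 fold changes were 0.47 ± 0.54 for SMG1P3 and -0.69 ± 0.28 for SMG1P7, with edgeR adjusted p of 0.703 and 0.205.

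SMG8 and SMG9 form the complex that restrains SMG1. SMG8 had 41.6, 33.5 and 32.9 CPM in shPNISR, against 50.8, 38.6 and 40.2 CPM in shNC. The shPNISR libraries 2 and 3 lay below every shNC library, and shPNISR 1 lay above 2 of them. Its log2 fold change of -0.26 ± 0.14 had the smallest unadjusted p among the members, 0.0742, and did not pass (edgeR, adjusted p = 0.335). SMG9 had 43.3, 41.3 and 34.5 CPM in shPNISR, against 44.2, 41.7 and 41.8 CPM in shNC. Apart from shPNISR 3, all libraries lay within 3 CPM of each other. SMG9 had a log2 fold change of -0.10 ± 0.12 (edgeR, adjusted p = 0.715), and -0.01 without shPNISR 3.

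SMG8 (ENSG00000167447) spans chromosome 17 from 59209400 to 59215247, plus strand, and SMG9 (ENSG00000105771) chromosome 19 from 43727992 to 43754990, minus strand. The annotation marks 1 transcript each of SMG1, SMG8 and SMG9 as an NMD target, and none of the other members. SMG8 is the most compact member, with 5 exons, and 11.2% of its exon bases overlap AC099850.2, a gene with no reads in any library.

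SMG5 and SMG6 act after UPF1 is phosphorylated. SMG5 had 233.3, 187.6 and 202.8 CPM in shPNISR, against 264.6, 217.4 and 234.7 CPM in shNC. The shPNISR 1 library lay above shNC 2, and the other shPNISR libraries lay below all shNC libraries. SMG5 had a log2 fold change of -0.20 ± 0.12 (edgeR, adjusted p = 0.383). SMG6 had 58.0, 43.6 and 48.8 CPM in shPNISR, against 58.0, 52.3 and 49.3 CPM in shNC. The shPNISR 1 library lay above shNC 2 and 3. Its log2 fold change was -0.09 ± 0.13 (edgeR, adjusted p = 0.777), and without shPNISR 2 it was -0.00021.

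Reads of SMG5 per read of SMG6 were 4.02, 4.30 and 4.15 in shPNISR, against 4.56, 4.16 and 4.76 in shNC. The shPNISR 2 library lay above shNC 2, so the groups overlapped. The difference of the mean log2 ratios was -0.11 (-0.07 without shNC 3 and -0.16 without shNC 2), with SDs of 0.05 in shPNISR and 0.10 in shNC (n = 3 each; exact permutation test, two-sided, p = 0.2, and 0.3 adjusted over the 2 ratios). SMG5 (ENSG00000198952) spans chromosome 1 from 156249224 to 156282825, minus strand. SMG6 (ENSG00000070366) spans chromosome 17 from 2059839 to 2303771, minus strand, and 25.4% of its exon bases overlap exons on the other strand, those of HIC1 and SRR among them. HIC1 had 29 to 32 reads in shPNISR and 32 to 41 in shNC, and SRR 389 to 406 reads in shPNISR and 269 to 358 in shNC, beside 703 to 980 SMG6 reads in shPNISR and 740 to 1051 in shNC. Without knowledge of the strand used in counting, reads of SMG6 and of these genes cannot be told apart where they overlap.

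**Figure D2:**
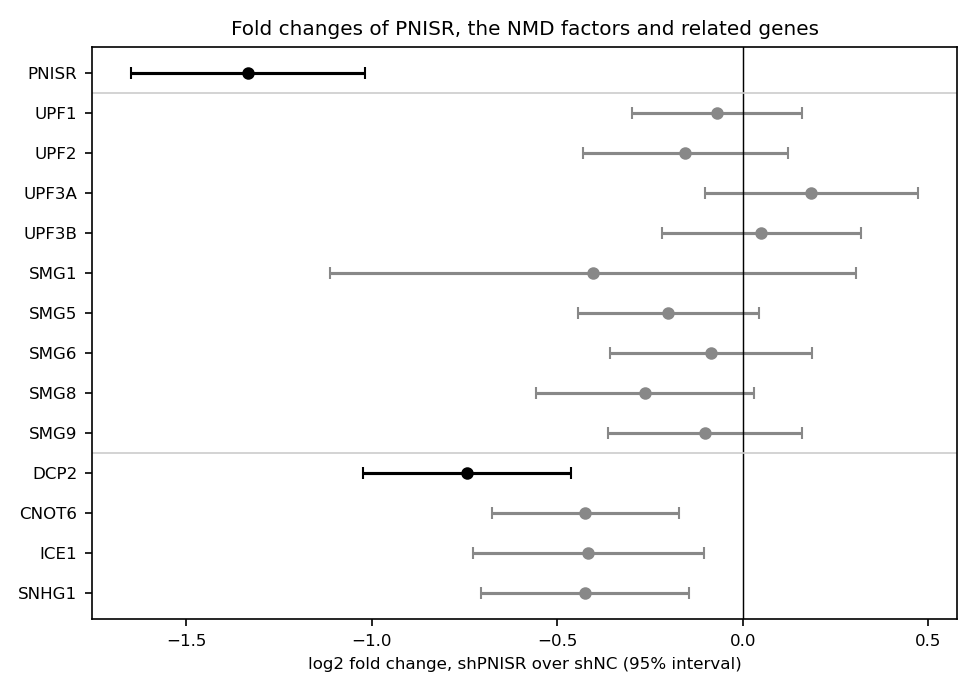
Log2 fold change, shPNISR over shNC, with its 95% interval from the edgeR fit, for PNISR, the 9 NMD factor genes and 4 related genes. Black marks genes that passed at an adjusted p of 0.05, PNISR (-1.33) and DCP2 (-0.74), and grey those that did not; all 9 member intervals include 0.

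Set per length, the levels of the members differed several-fold. In CPM per kb of the longest coding transcript, SMG5 averaged 45.6 ± 5.11 in shPNISR and 52.4 ± 5.24 in shNC, and UPF1 46.4 ± 3.81 in shPNISR and 48.7 ± 3.49 in shNC (SD, n = 3 each). These top genes changed places between the groups and did not differ beyond their spread. UPF3A followed at 20.5 ± 1.00 in shPNISR and 18.002 ± 3.33 in shNC, and UPF3B at 15.9 ± 0.72 in shPNISR and 15.3 ± 1.98 in shNC. No library of UPF3A came near the lowest of UPF1, 44.0 CPM per kb.

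The remaining members lay lower and close together. SMG8 averaged 10.4 ± 1.39 CPM per kb in shPNISR and 12.4 ± 1.92 in shNC, and SMG6 8.41 ± 1.23 in shPNISR and 8.93 ± 0.74 in shNC. SMG9 was at 7.20 ± 0.84 in shPNISR and 7.73 ± 0.26 in shNC. SMG1 was at 5.54 ± 1.79 in shPNISR and 7.33 ± 1.89 in shNC, and UPF2 at 5.92 ± 0.58 in shPNISR and 6.60 ± 0.70 in shNC. Over the 6 libraries each gene from UPF3A downward overlapped its neighbour in this order. Per kb of coding sequence alone the order was kept but for SMG9, which has a long untranslated part and then stood beside UPF3B at 25.4 ± 2.97 in shPNISR and 27.3 ± 0.91 in shNC.

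**Figure D3:**
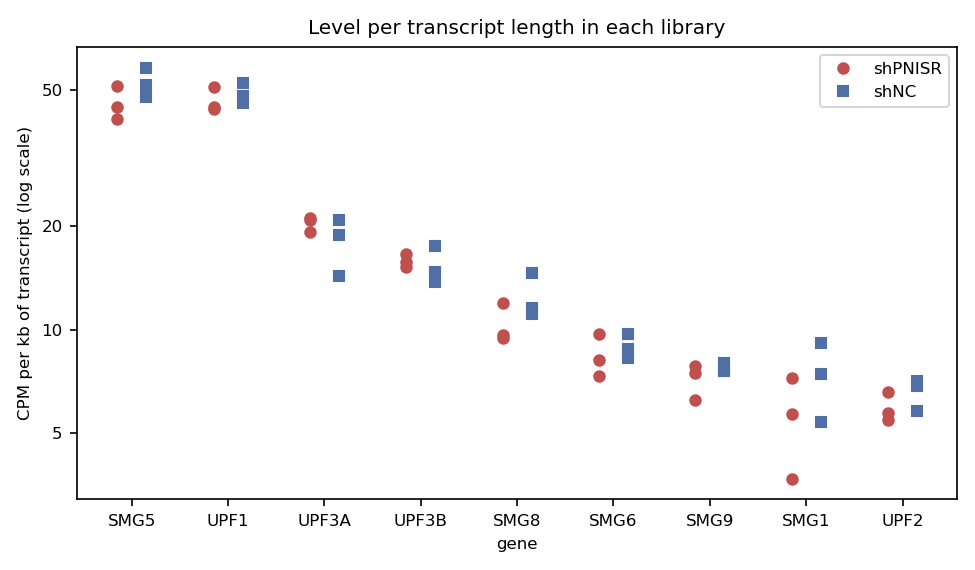
Level of each member in CPM per kb of its longest coding transcript (log axis) in the 3 shPNISR libraries (circles, left) and the 3 shNC libraries (squares, right), ordered by the shNC mean. SMG5 and UPF1 lie between 41.1 and 58.0, and the lowest value is SMG1 in shPNISR 2 at 3.69.

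The members did not vary as 1 block across the libraries. Of the 36 pairs of members, 22 had a Pearson correlation of log2 CPM above 0 over the 6 libraries, and 6 reached 0.8. Those 6 were all pairs of UPF1, SMG5, SMG6 and SMG8, from 0.82 for SMG6 with SMG8 to 0.96 for SMG5 with SMG8. These 4 genes were highest or level with the highest in shNC 1 and low in shPNISR 2 and 3. UPF3A and UPF3B went together at 0.78, and UPF3B ran against SMG1 at -0.67 and against UPF1 at -0.60. Correlations are over 6 libraries that share their scaling and fall into 2 groups, and they are given as a description.

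Along the first principal component all shPNISR libraries stood above all shNC libraries, and shNC 2 lay apart from the other shNC libraries. On it UPF2 had a correlation of -0.81, SMG5 of -0.75 and SMG8 of -0.71, and the other members lay between -0.50 and 0.12 (Pearson, 6 libraries). These correlations cannot be told apart from the difference between the groups. On the second, which set shPNISR 2 and shNC 3 apart, SMG1 had a correlation of 0.80, UPF3A of -0.80 and UPF3B of -0.89 (Pearson, 6 libraries). The 5 genes most like the mean standardized profile of the 9 members, among tested genes of at least 10 CPM, were TXLNA, DHX37, BRI3BP, ENSG00000279806 and MON1B, with Pearson correlations of 0.987 to 0.993 and Spearman correlations of 0.886 to 1 over the 6 libraries. They were picked for the highest Pearson correlation, so these high values follow from the choice. The mean profile does not stand for each member.

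**Figure D4:**
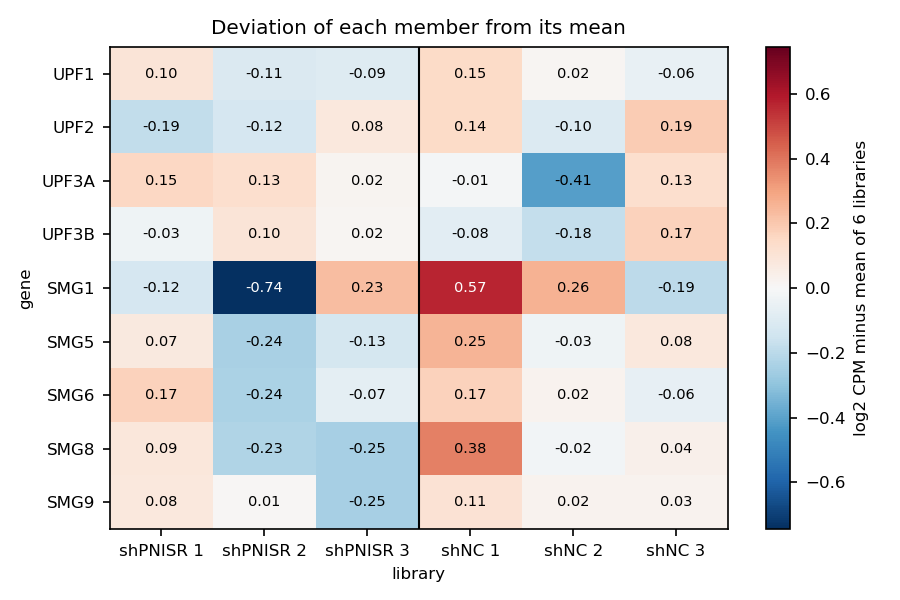
Log2 CPM of each member minus its mean over the 6 libraries, with shPNISR libraries left of the line and shNC libraries right of it. SMG1 ranges from -0.74 in shPNISR 2 to 0.57 in shNC 1, and UPF3A is lowest in shNC 2 at -0.41.

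Of 18 other genes of NMD and of the exon junction complex, all tested, 0 rose and 0 fell by edgeR's test. Of all tested genes 3.14% passed. The fitted value was below 0 for 12 of the 18, beside 52.1% of all tested genes. Their median was -0.08, beside -0.01 over all tested genes. An unadjusted p under 0.05 was found for 1, beside 17.8% of all tested genes. That 1 was ICE1, a factor that aids loading of UPF3B onto exon junction complexes, at 33.3, 29.8 and 43.9 CPM in shPNISR, against 54.5, 44.3 and 43.9 CPM in shNC. The shPNISR 3 library stood level with shNC 3 (log2 fold change -0.42 ± 0.15, edgeR adjusted p = 0.139). The next by unadjusted p were the release factors ETF1 (-0.19 ± 0.11) and GSPT2 (0.23 ± 0.17) and the nucleolar GTPase GNL2 (-0.15 ± 0.11), with edgeR adjusted p from 0.381 to 0.507.

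Among the enzymes that degrade mRNA after NMD and other decay pathways have marked it, DCP2, the catalytic subunit that removes the cap, fell. Its level was 31.1, 35.7 and 43.9 CPM in shPNISR, against 64.7, 57.9 and 62.9 CPM in shNC. Every shPNISR library lay below every shNC library, and 59.7% of the shNC level remained (95% interval 49.2% to 72.5%; log2 fold change -0.74 ± 0.13, edgeR adjusted p = 0.0041). DCP2 (ENSG00000172795) spans chromosome 5 from 112976702 to 113020970, plus strand, and no exon of another annotated gene overlaps its exons. Its call ended with shPNISR 1 left out (-0.63, adjusted p = 0.0533), and it passed in the other 17 alternatives.

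DCP2 was the only called gene of the 32 decay enzymes tested, where 3.14% of all tested genes passed. Groups did not overlap in 7 of the 32, near the 21.1% of all tested genes. The fitted value was below 0 in 27 of the 32, beside 52.1% of all tested genes. The median was -0.11, beside -0.01 over all tested genes. The deadenylase CNOT6 had 77.3, 70.1 and 91.4 CPM in shPNISR, against 117.9, 100.9 and 101.7 CPM in shNC. Its groups did not overlap, but it did not pass (-0.42 ± 0.12, edgeR adjusted p = 0.0626). Its paralog CNOT6L (-0.35 ± 0.13), the nuclear exosome ribonuclease EXOSC10 (-0.35 ± 0.11) and the poly(A) nuclease subunit PAN3 (-0.32 ± 0.13) followed with edgeR adjusted p from 0.0953 to 0.209. CNOT6 passed in 4 of 18 alternatives, with shNC 2 or shNC 3 left out (edgeR, adjusted p = 0.0188 and 0.0373), with DESeq2 and with no filter on low counts. EXOSC10 passed in 1 of the 18, without shNC 2 (0.0368). With the correction for GC content and exon length CNOT6 was at -0.29 (edgeR, adjusted p = 0.135), CNOT6L at -0.17 and PAN3 at -0.18. DCP2 was then at -0.57 and EXOSC10 at -0.36. CNOT1, the scaffold of the deadenylase complex and a long transcript looked at after its values were seen, had 333.0, 235.0 and 321.4 CPM in shPNISR, against 432.7, 408.9 and 295.0 CPM in shNC. It was lowest of its group in shPNISR 2 and in shNC 3, as SMG1 was (-0.35 ± 0.15, edgeR adjusted p = 0.243). Given how CNOT1 was chosen, the likeness is a description only, and its cause was not tested.

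Genes with known NMD-sensitive transcripts were measured as whole genes. Of 23 tested, 0 rose and 0 fell by edgeR's test, where 3.14% of all tested genes passed. An unadjusted p under 0.05 was found for 3, beside 17.8% of all tested genes. The median log2 fold change was -0.10, beside -0.01 over all tested genes. Of the 23, 9 lay above 0 and 14 below, where 52.1% of all tested genes lay below. SNHG1, a snoRNA host RNA, had 44.6, 53.2 and 58.6 CPM in shPNISR, against 65.9, 62.6 and 81.6 CPM in shNC. The groups did not overlap, and the gene did not pass (-0.43 ± 0.13, edgeR adjusted p = 0.0906), though it did with no filter on low counts (adjusted p = 0.0271). The others with the smallest p were the snoRNA host SNHG5 (-0.69 ± 0.29), the tRNA synthetase gene CARS1 (0.27 ± 0.11) and the stress gene GADD45A (0.29 ± 0.16), with edgeR adjusted p from 0.197 to 0.349.

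Calls over the whole table depended on shNC 2. Without it 12.3% of 16500 tested genes passed, 7.78% higher and 4.52% lower, and still 0 of the 9 members. Of the 23 genes with NMD-sensitive transcripts 3 then rose and 6 fell, SNHG1 (-0.50, edgeR adjusted p = 0.0178) and GADD45A (0.51, adjusted p = 0.0199) among them. Among the same 23 genes, ATF3, a stress transcription factor picked out for mention after its values were seen, had 909, 1042 and 1150 reads in shPNISR. It had 424, 1630 and 394 reads in shNC, where shNC 2 was highest of all 6 libraries. GAS5, also of the 23 and also picked out afterwards, is a snoRNA host often used to follow NMD. It had 2288, 2627 and 2268 reads in shPNISR, against 2675, 2482 and 2781 reads in shNC, and its groups overlapped.

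**Figure D5:**
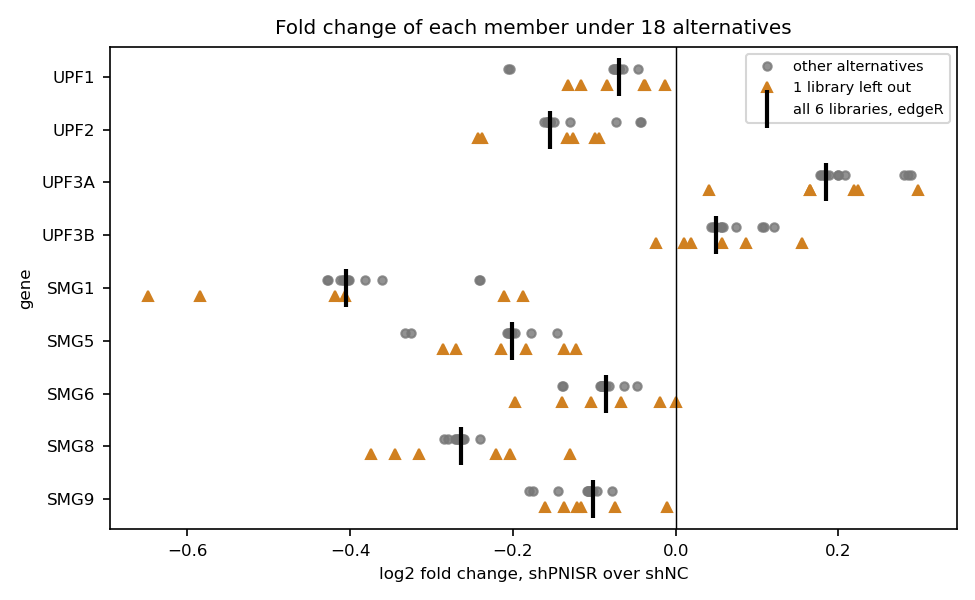
Log2 fold change, shPNISR over shNC, of each member with all 6 libraries (black line), with 1 library left out (triangles) and under the other 12 alternatives (circles). Only UPF3B crosses 0, to -0.02 without shNC 2, and SMG1 has the widest range, -0.65 to -0.19.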

How the data were processed

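RNA was sequenced from 3 shPNISR and 3 shNC libraries of HCT-8 cells. The values deposited by the authors are raw read counts, whole numbers for each Ensembl gene ID. HISAT2 2.0.4 and GRCh38 are named per the submitters' processing notes; which counter, annotation release and strand option were used was not given in the sources used here. Symbols were matched for 60463 of 60664 IDs. Every column was matched to its library by title. Counts within each group varied beyond sampling noise, so no library was merged with another.

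Genes were filtered with filterByExpr (minimum count 10, minimum total 15), scaled with TMM and tested with edgeR 4.0.16 (robust quasi-likelihood, two-sided) in R 4.3.3, with Benjamini-Hochberg adjustment over all 16102 tested genes at 0.05. Each SE was derived by dividing the log2 fold change by the root of its F statistic. Log2 CPM used a prior count of 2. Alternatives were other scalings and filters, DESeq2 1.42.0, limma 3.58.1 (voom), dispersion without robust shrinkage, a block for replicate number, a loess correction (span 0.4) for GC content and exon length, each library left out, and, added after seeing the data, 2 libraries per group.

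Positions, lengths and transcript sequences came from GENCODE 29 on GRCh38. Lengths are of the coding transcript with the longest coding sequence. Stretches of 100 bases were matched exactly on both strands to all GENCODE transcripts. Copies were aligned with BLAST+ 2.17.0, and UPF3A with UPF3B with Biopython 1.88. The genes named were PNISR, the members, their copies, called members and the 4 others with the smallest p of each related list, and the 5 genes most like the members' profile; genes said to be picked out afterwards are exceptions. The members and lists were chosen with earlier results of these data known.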

Additional observations from a re-analysis of the deposited data

How the results depend on the processing

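None of the 9 members was called under any of the 18 alternatives, with adjusted p from 0.106 upward. All members kept their direction in all 18 except UPF3B, whose log2 fold change was -0.025 without shNC 2; the cause was not tested. At an unadjusted p under 0.05 the most members passing was 3, with the correction for GC content and length, with or without the replicate block. The share of all tested genes at that level was not computed for this correction, so the count cannot be set against a background. With 1 library left out, fold changes ran from -0.13 to -0.01 for UPF1, -0.24 to -0.09 for UPF2, 0.04 to 0.30 for UPF3A, -0.02 to 0.16 for UPF3B, -0.65 to -0.19 for SMG1, -0.29 to -0.12 for SMG5, -0.20 to -0.00021 for SMG6, -0.37 to -0.13 for SMG8 and -0.16 to -0.01 for SMG9. With the correction for GC content and length SMG5 was at -0.33 (adjusted p = 0.114), UPF1 at -0.21 (0.282) and UPF2 at -0.04 (0.866). The differences of the log2 ratios kept their direction but moved with 1 library left out, from 0.06 (without shNC 2) to 0.21 (without shNC 1) for UPF3A to UPF3B and from -0.16 (without shNC 2) to -0.07 (without shNC 3) for SMG5 to SMG6.

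The number of called genes over the whole table depended on the setting, and the cause was not tested. With all 6 libraries 371 were higher and 134 lower. Library totals gave 71 lower, no low-count filter 642 higher and 354 lower, DESeq2 229 lower, and 2 libraries per group 185 higher and 63 lower. Leaving out 1 library gave 133 to 1284 higher and 30 to 746 lower, with the lowest counts without shPNISR 1 and the highest without shNC 2.

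The labels do not say whether replicate numbers pair the libraries. Deviations from the group means had correlations of 0.12, -0.08 and -0.15 for numbers 1, 2 and 3. Across the groups the highest was 0.31, for shNC 3 with shPNISR 2. Such deviations sum to 0 within each group of 3, so these correlations cannot decide whether the libraries are paired. With the replicate block 390 genes were higher and 118 lower, and 0 members were called. With 3 libraries a group, the intervals of the members other than SMG1 run from 68.0% to 139% of the shNC level, and differences inside them are not excluded.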
